A study of Mus musculus with 2 samples.

Results

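The 9 genes described here encode receptors that sense microbial products at the surface or inside of cells and the proteins that carry or restrain their signal: the Toll-like receptor genes *Tlr1*, *Tlr2*, *Tlr4*, *Tlr6* and *Tlr13*, the lipopolysaccharide co-receptor gene *Cd14*, the adaptor gene *Myd88*, the inhibitory kinase-family gene *Irak3* and the cytosolic sensor gene *Nod2*. They were taken by symbol from the 32285 genes counted in both libraries, with earlier results of these data known. The data were 2 single-cell RNA sequencing (scRNA-Seq) libraries of the mouse temporomandibular joint (TMJ), 1 from joints injected with PBS and 1 from joints injected with complete Freund's adjuvant (CFA), an oil emulsion of killed mycobacteria. The mice were C57BL/6, genotype WT and 8 to 10 weeks old in the labels (female and 8 weeks in the methods), received 10 µL of either PBS or CFA (5 mg/mL) in each TMJ, and were sampled after 3 weeks (n = 3 in the methods). Bone, cartilage, disc, muscle and ligament around the joint went into the same digest, and cells with CD45, the immune cell surface protein encoded by *Ptprc*, were depleted with beads, so the numbers of immune cells below are those that escaped depletion. The labels and the methods name different kit versions and digestion enzymes. As each condition had a single library, no difference between PBS and CFA could be set against replicates, and none was tested.

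Toll-like receptors recognize molecular patterns of microbes and signal, in most cases through the adaptor MyD88 and IRAK kinases, to NF-κB and to cytokine genes. TLR2 pairs with TLR1 or TLR6 to bind bacterial lipoproteins, including those of mycobacteria, TLR4 binds lipopolysaccharide that CD14 delivers to it, mouse TLR13 senses bacterial ribosomal RNA in endosomes, and NOD2 senses muramyl dipeptide, a fragment of the bacterial cell wall. IRAK3, also called IRAK-M, dampens the signal and has been studied mainly in monocytes and macrophages.

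Of 7671 PBS and 5709 CFA barcodes, 2667 and 4014 were kept as cells because they held at least 500 genes, at most 10% mitochondrial and at most 1% hemoglobin unique molecular identifiers (UMIs, which count captured RNA molecules). They held 27201994 and 44432717 UMIs, with medians of 7022 and 6509.5 UMIs per cell. The libraries shared 10 barcodes, of which 2 were kept in both. Clusters were computed without the 9 genes and without the other genes of the pathway, and 31 of 37 took 17 cell type names from marker genes, written as macrophage-like and so on. The 6 myeloid types (macrophage-, Acp5 macrophage-, monocyte-, myeloid progenitor-, mature neutrophil- and immature neutrophil-like) made up 128 PBS cells (4.80% of cells and 6.47% of UMIs) and 1067 CFA cells (26.6% of cells and 42.9% of UMIs). Levels are given as CPM, which scale a gene's UMIs by all UMIs of that cell type in the library, with exact Poisson 95% intervals in parentheses that cover counting error only. In all, 10 cell types had at least 50 cells in each library, and ratios of CFA to PBS levels were taken only within these. Free RNA in the suspension places UMIs of a gene in cells that do not make it. Shares of cells with a UMI are therefore set beside those of Schwann-like and B cell-like cells, as a comparison and not as a measure of free RNA alone. In that order, their median UMIs per cell were 3827 and 3734 in PBS and 3431.5 and 4036 in CFA. Whether these cells make the genes themselves was not tested.

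The genes lie apart in the genome except for *Tlr1* and *Tlr6*, near relatives that neighbour each other on chromosome 5 (GRCm38, minus strand, 64924679 to 64933563 and 64952031 to 64960097), whose similar stretches of sequence can split or lose reads. Their counts are uncertain to that extent. Stretches directly upstream of the annotated gene starts are shown for *Tlr13*, *Tlr1*, *Tlr2* and *Tlr6*, which had over 90% of their CFA UMIs in myeloid cells. They are also shown for *Irak3* and *Nod2*, which were read widely in other cells as well, so that the sequences can be read beside the levels. *Cd14*, with 96.7% of its CFA UMIs in myeloid cells, and *Tlr4* had no usable entry, and *Myd88* is not shown. The stretches were taken from RefSeq promoters of GRCm38.p6 on the strand of the gene, and capitals mark GAGGAA, the core bound by the myeloid and B cell factor PU.1.
Tlr13 (chrX:106143025-106143203, plus strand): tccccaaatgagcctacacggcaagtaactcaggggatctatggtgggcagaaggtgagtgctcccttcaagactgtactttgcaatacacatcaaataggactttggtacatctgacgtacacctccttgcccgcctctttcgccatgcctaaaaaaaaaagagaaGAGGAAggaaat
Tlr1 (chr5:64933564-64933808, minus strand): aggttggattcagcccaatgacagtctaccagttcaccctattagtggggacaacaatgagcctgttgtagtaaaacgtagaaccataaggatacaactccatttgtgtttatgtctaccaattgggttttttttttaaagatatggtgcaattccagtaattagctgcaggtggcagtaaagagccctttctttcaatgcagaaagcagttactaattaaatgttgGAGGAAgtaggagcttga
Tlr2 (chr3:83841768-83841858, minus strand): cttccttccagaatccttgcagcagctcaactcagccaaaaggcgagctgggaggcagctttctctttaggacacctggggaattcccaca
Tlr6 (chr5:64960098-64960298, minus strand): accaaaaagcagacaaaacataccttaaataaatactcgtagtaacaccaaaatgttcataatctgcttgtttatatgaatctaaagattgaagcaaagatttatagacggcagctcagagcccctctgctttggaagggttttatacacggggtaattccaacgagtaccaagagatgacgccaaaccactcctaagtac
Irak3 (chr10:120202131-120202380, minus strand): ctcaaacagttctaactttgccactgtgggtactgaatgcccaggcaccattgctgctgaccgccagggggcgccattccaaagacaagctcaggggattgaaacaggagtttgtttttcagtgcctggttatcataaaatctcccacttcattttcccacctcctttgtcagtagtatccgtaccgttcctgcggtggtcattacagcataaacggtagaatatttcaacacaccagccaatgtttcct
Nod2 (chr8:88647097-88647314, plus strand): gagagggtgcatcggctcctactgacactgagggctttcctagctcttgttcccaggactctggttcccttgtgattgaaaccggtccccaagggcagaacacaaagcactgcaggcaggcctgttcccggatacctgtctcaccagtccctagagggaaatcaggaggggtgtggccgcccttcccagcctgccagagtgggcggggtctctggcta
The first base of the match stood 12 bases before the start of the *Tlr13* gene and 18 before that of *Tlr1*. In the 250-base windows before the start sites of RefSeq, searched on both strands, GAGGAA was present in 2 of the 7 members with a promoter entry (*Tlr1* and *Tlr13*) and in 7639 of 32851 promoters (23.3%). The AP-1 site TGACTCA (4.46% of promoters) was in 0 of the 7, and so was GGGACTTT (1.21%), a fixed form of the variable NF-κB site. Other forms of the NF-κB site were not searched for, so the stretches may still hold it. A match is a run of letters and not evidence of binding.

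Most UMIs of the surface and endosomal receptors lay in myeloid cells of the CFA library. The myeloid types held 96.7% of the *Cd14* UMIs of that library, 96.0% of those of *Tlr13*, 93.5% of *Tlr1*, 93.0% of *Tlr2* and 91.0% of *Tlr6*. The remaining genes were spread more widely, with 62.4% of *Nod2*, 59.4% of *Tlr4*, 54.7% of *Irak3* and 49.5% of *Myd88* UMIs in cell types that held 42.9% of all UMIs. Over all kept cells, *Cd14* stood at 15.1 (13.6 to 16.6) CPM in PBS and 613 (606 to 621) in CFA cells, and *Myd88* at 21.7 (19.9 to 23.5) and 23.4 (22 to 24.8). These totals move with the number of myeloid cells in each library, and the sections below therefore compare levels within cell types. The level of a type also depended on how its cells were drawn: with each cell classed on its own markers, *Tlr4* and *Tlr6* of mature neutrophil-like CFA cells were 191 and 26.2 in place of 401 and 56.8, *Myd88* and *Irak3* of the same cells 40.9 and 118 in place of 78.7 and 184, *Tlr1* of macrophage-like cells 13.2 in place of 20.8 and *Nod2* of monocyte-like cells 51.7 in place of 127.

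**Figure D1:**
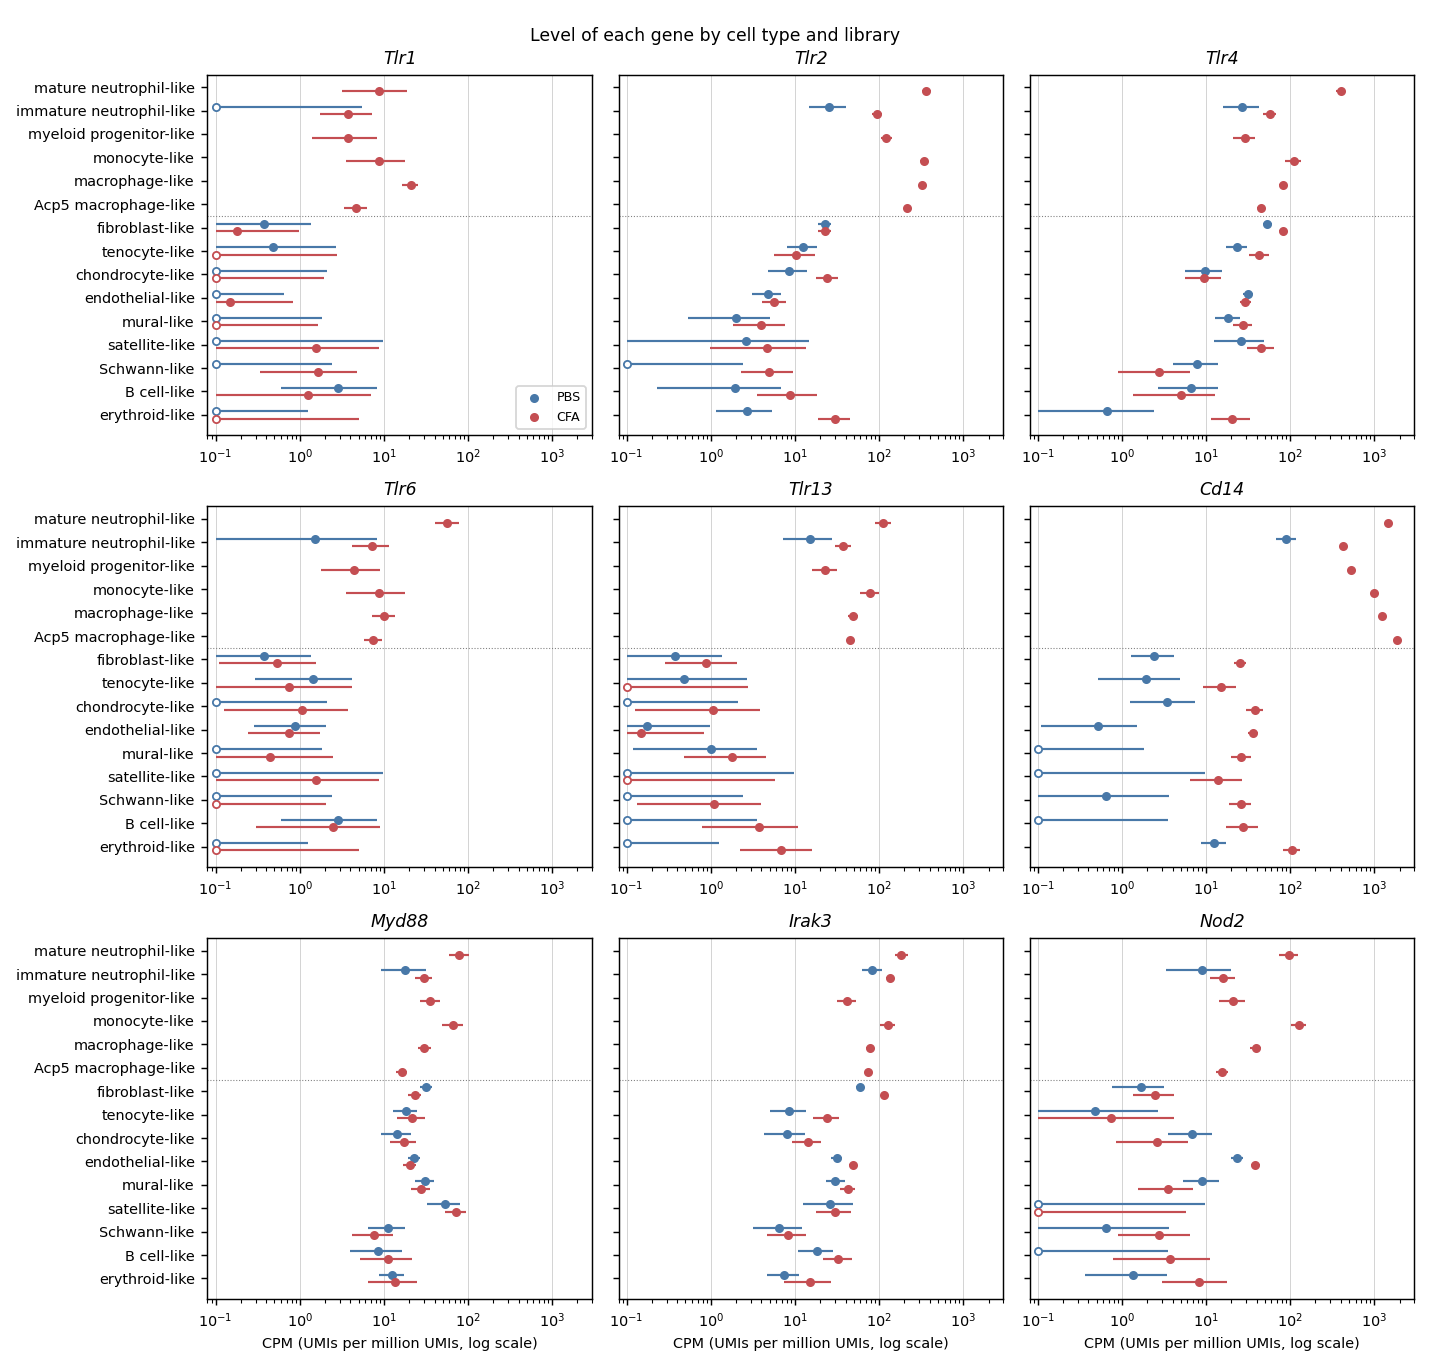
Levels of the 9 genes in CPM on a log axis, by cell type, for the PBS (blue) and CFA (red) libraries where a type held at least 50 cells, with exact Poisson 95% intervals and open circles at the left edge for types without a UMI. *Cd14* reached 1857 in Acp5 macrophage-like and *Tlr4* 401 in mature neutrophil-like CFA cells, and *Irak3* and *Tlr4* were also read in fibroblast-like CFA cells (114 and 81.5).

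*Tlr2* encodes the receptor subunit shared by both lipoprotein heterodimers (chromosome 3, 83836272 to 83841767, minus strand). In the CFA library it was highest in mature neutrophil-like cells at 364 (321 to 412) CPM, with monocyte-like cells at 342 (302 to 385) and macrophage-like cells at 322 (305 to 340), and the intervals of these neighbours overlapped. Acp5 macrophage-like cells, which carried *Acp5*, *Mmp12* and *Dcstamp*, stood apart below them at 216 (206 to 225). A *Tlr2* UMI was present in 53.0% of mature neutrophil-like and 79.4% of macrophage-like CFA cells, and after each cell was thinned to 1000 UMIs in 28.4% and 29.1%. The corresponding shares were 2.39% of Schwann-like and 4.70% of B cell-like CFA cells, and 0% and 0.694% after thinning.

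Outside the myeloid types, *Tlr2* was read in fibroblast-like cells at a level that hardly differed between the libraries, 22.5 (18.7 to 26.9) CPM in PBS and 22.7 (18.9 to 27.0) in CFA, a ratio of 1.01 (0.780 to 1.3). Of the 128 CFA UMIs, 35 came from 5 cells with at least 5 *Tlr2* UMIs, and all 5 also held *Ptprc* UMIs. The level in fibroblast-like CFA cells without a *Ptprc* UMI was 17.9. In immature neutrophil-like cells *Tlr2* was 25.5 (14.9 to 40.9) in PBS and 94.7 (82.8 to 108) in CFA, 3.71-fold higher (2.27 to 6.48). Chondrocyte-like cells held 8.51 (4.76 to 14.0) and 24.2 (17.7 to 32.2), 2.84-fold higher in CFA (1.56 to 5.47). Of the 46 *Tlr2* UMIs of chondrocyte-like CFA cells, 14 came from a single cell that also held *Ptprc* UMIs, and the level in cells without a *Ptprc* UMI was 17.0. The part of *Ptprc*-bearing barcodes in the fibroblast-like and chondrocyte-like ratios was not tested further. No *Tlr2* UMI was found in 307 Schwann-like PBS cells, which allows a share of up to 0.977% of cells with a UMI and sets no limit on cells that express the gene.

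The partner genes *Tlr1* and *Tlr6* were sparse, with 13 and 19 UMIs in the PBS and 169 and 201 in the CFA library. *Tlr1* was highest in macrophage-like CFA cells at 20.8 (16.6 to 25.6) CPM, whereas mature neutrophil-like cells held 8.75 (3.21 to 19.0), an interval that overlapped. *Tlr6* showed the other order, with 56.8 (40.4 to 77.7) in mature neutrophil-like and 10.1 (7.31 to 13.7) in macrophage-like cells, and these intervals were apart. Acp5 macrophage-like cells held 4.66 (3.38 to 6.25) of *Tlr1* and 7.51 (5.87 to 9.48) of *Tlr6*. Neither gene reached 30 UMIs over both libraries in a cell type with at least 50 cells in each, so no ratio between the conditions was read for them.

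The lipopolysaccharide receptor gene *Tlr4* (chromosome 4, 66827584 to 66930284, plus strand) was read in myeloid, connective tissue and vessel cells alike. In the CFA library it was highest in mature neutrophil-like cells at 401 (355 to 451) CPM, apart from monocyte-like cells at 110 (88.0 to 135). Macrophage-like cells followed at 82.1 (73.6 to 91.3) and fibroblast-like cells at 81.5 (74.3 to 89.3), and the intervals of these 3 overlapped with their neighbours. Fibroblast-like PBS cells stood at 53.5 (47.5 to 60.1), so that the CFA level was 1.52-fold higher (1.31 to 1.77), short of 2-fold. This ratio pools subtypes whose parts differed between the libraries, and the ratios by subtype are given below. A UMI was present in 36.9% of PBS and 51.1% of CFA fibroblast-like cells (4.39% and 9.51% after thinning), beside 2.93% and 1.06% of Schwann-like cells (0.334% and 0.275%) and 2.87% and 2.68% of B cell-like cells (1% and 0%).

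Endothelial-like cells held *Tlr4* at 31.6 (27.2 to 36.6) CPM in PBS and 29.4 (25.5 to 33.9) in CFA, a ratio of 0.931 (0.757 to 1.14). Tenocyte-like cells held 23.4 (17.3 to 31.0) and 43.2 (32.8 to 55.8), 1.84-fold higher (1.24 to 2.75), and mural-like cells, which surround vessels, 18.4 (12.9 to 25.3) and 27.5 (21.1 to 35.3). Immature neutrophil-like cells held 27.0 (16 to 42.7) and 57.0 (47.8 to 67.4), 2.11-fold higher (1.28 to 3.66). That last ratio was 1.38 as a mean over cells. The smallest *Tlr4* levels of the compared types in CFA were those of Schwann-like cells at 2.75 (0.894 to 6.42) and B cell-like cells at 5.03 (1.37 to 12.9).

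*Cd14* encodes a surface protein that passes lipopolysaccharide to TLR4 and also serves TLR2. Its level was 1857 (1829 to 1885) CPM in Acp5 macrophage-like, 1468 (1378 to 1561) in mature neutrophil-like, 1239 (1205 to 1273) in macrophage-like and 985 (918 to 1056) in monocyte-like CFA cells, each apart from the next. Immature neutrophil-like cells held 90.1 (68.8 to 116) in PBS and 430.5 (405 to 458) in CFA, 4.78-fold higher (3.68 to 6.31). The few PBS cells of the other myeloid types, 18 macrophage-, 17 mature neutrophil- and 17 monocyte-like, stood at 513 (418 to 623), 165 (107 to 241) and 358 (284 to 447). These were below the CFA values of the same types without overlap of the intervals, but fewer than 50 PBS cells stood behind each and no ratio was read.

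*Tlr13*, on the X chromosome (106143204 to 106160493, plus strand), was also read mainly in myeloid cells, at lower levels and in another order than *Cd14*. In CFA it was 112 (88.6 to 140) CPM in mature neutrophil-like, 77.3 (59.3 to 99.1) in monocyte-like, 48.8 (42.3 to 56.0) in macrophage-like and 45.6 (41.4 to 50.1) in Acp5 macrophage-like cells. The intervals of the first pair and of the last pair overlapped. Immature neutrophil-like cells held 15 (7.20 to 27.6) in PBS and 37.3 (30.0 to 45.9) in CFA, 2.48-fold higher (1.29 to 5.36), although the ratio fell under 2 in 3 of 9 alternative analyses. Endothelial-like cells held 1 UMI in each library, of 703 and 957 cells.

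*Nod2* (chromosome 8, 88647315 to 88688474, plus strand) was read in both monocytic and endothelial cells. It was highest in monocyte-like CFA cells at 127 (104 to 154) CPM, next to mature neutrophil-like cells at 96.2 (74.4 to 122) with an overlapping interval. Endothelial-like cells held 23.4 (19.6 to 27.7) in PBS and 38.4 (33.8 to 43.4) in CFA, 1.64-fold higher (1.33 to 2.04), and the CFA level was close to that of macrophage-like cells at 39.1 (33.3 to 45.6). A UMI was present in 14.2% and 18.4% of endothelial-like cells, but after thinning in 2.71% and 2.61%, so the shares at equal depth gave no difference. The Schwann-like shares were 0.326% and 0.798% (0% and 0.551% after thinning), and fibroblast-like cells held 1.67 (0.765 to 3.18) and 2.48 (1.36 to 4.16) CPM.

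*Myd88*, the adaptor of all the Toll-like receptors named here (chromosome 9, 119335934 to 119341411, minus strand), was read in every compared cell type of both libraries. In CFA it was 78.7 (59.1 to 103) CPM in mature neutrophil-like, 71.8 (52.6 to 95.7) in satellite-like (muscle stem cell) and 66.1 (49.5 to 86.5) in monocyte-like cells, with overlapping intervals. Of the 9 cell types with enough UMIs, 0 passed 2-fold in either direction, and the ratios ran from 0.693 to 1.65. Fibroblast-like cells held 31.8 (27.2 to 36.9) in PBS and 23.4 (19.6 to 27.7) in CFA, a ratio of 0.736 (0.582 to 0.929), which was the 1 interval below 1 among the 40 ratios read.

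The inhibitor gene *Irak3* (chromosome 10, 120141648 to 120202130, minus strand) was read in fibroblast-like cells at a level within the range of the myeloid types, whereas other connective tissue cells held less. Mature neutrophil-like CFA cells held 184 (153 to 219) CPM. Immature neutrophil-like cells at 134 (120 to 150), monocyte-like cells at 126 (103 to 153) and fibroblast-like cells at 114 (106 to 124) followed, and the intervals of these 3 overlapped. Fibroblast-like cells held 59.7 (53.3 to 66.6) in PBS, so the CFA level was 1.92-fold higher (1.67 to 2.20), just short of 2-fold. As for *Tlr4*, this ratio pools subtypes in unequal parts, and the ratios by subtype are given below. A UMI was present in 35.9% of PBS and 58.7% of CFA fibroblast-like cells (5.86% and 13% after thinning), beside 2.61% and 3.46% of Schwann-like (0.669% and 1.10%) and 8.13% and 14.8% of B cell-like cells (1.5% and 2.08%).

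All 8 cell types with enough *Irak3* UMIs had a ratio above 1. Tenocyte-like cells held 8.61 (5.10 to 13.6) in PBS and 23.8 (16.3 to 33.6) in CFA, 2.77-fold higher (1.51 to 5.24). Endothelial-like cells held 31.5 (27.0 to 36.4) and 48.9 (43.7 to 54.5), 1.55-fold higher (1.29 to 1.87), and mural-like cells 30.3 (23.1 to 38.9) and 42.6 (34.5 to 52.1), 1.41-fold higher (1.01 to 1.98). The smallest levels of the compared types in CFA were those of Schwann-like cells at 8.26 (4.62 to 13.6).

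Over the 10 compared cell types, 40 of 90 pairs of gene and cell type had at least 30 UMIs over both libraries and were read as ratios. Of these, 14 were at least 2-fold higher in CFA and 0 were at least 2-fold lower, 7 of the 14 being *Cd14* and 7 other members, and the median ratio was 1.69. In 20 of the 40 the interval lay above 1.
Endothelial-like cells had 1 of 6 genes higher (*Cd14*), where 4.46% of all 11818 genes read were higher and 4.91% lower. In fibroblast-like cells 1 of 5 was higher (*Cd14*), beside 7.76% of all genes higher and 4.29% lower. Schwann-like cells had 1 of 2 (*Cd14*), beside 6.47% and 2.49%, and mural-like cells 1 of 4 (*Cd14*), beside 2.94% and 4.48%. Tenocyte-like cells had 1 of 4 (*Irak3*), beside 3.46% higher and 4.68% lower. Chondrocyte-like cells had 2 of 5 (*Tlr2* and *Cd14*), beside 3.67% and 6.19%, and 31 of their 89 PBS cells came from a cluster led by *Cytl1* and *Mia* that held 0 CFA cells. Immature neutrophil-like cells had 4 of 7 (*Tlr2*, *Tlr4*, *Tlr13* and *Cd14*), beside 7.52% and 9.14%. Erythroid-like cells had 3 of 4 (*Tlr2*, *Cd14* and *Irak3*), beside 12.1% and 7.25%. This type was named from 3 of 6 markers (*Hba-a1*, *Car2* and *Hbb-bt*), and the limit of 1% hemoglobin UMIs leaves out cells rich in hemoglobin RNA. Satellite-like cells had 0 of 2, beside 8.15% and 5.17%, and B cell-like cells 0 of 1, beside 2.43% and 3.86%.
In 8 of the 10 cell types at least 1 gene passed 2-fold upward, and in none did a gene pass it downward. Erythroid-like cells held 8 *Tlr2* UMIs in PBS and 22 in CFA, a ratio of 11.1 (4.77 to 28.9). In these cells the median UMIs per cell were 18399 in PBS and 2218 in CFA and the median ratio of all genes was 1.12, and the *Irak3* ratio of 2.02 (0.885 to 4.35) had an interval that included 1. Without the hemoglobin limit, the immature neutrophil-like ratios were 7.63 for *Tlr2*, 11.6 for *Tlr13* and 24.2 for *Cd14*.

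**Figure D2:**
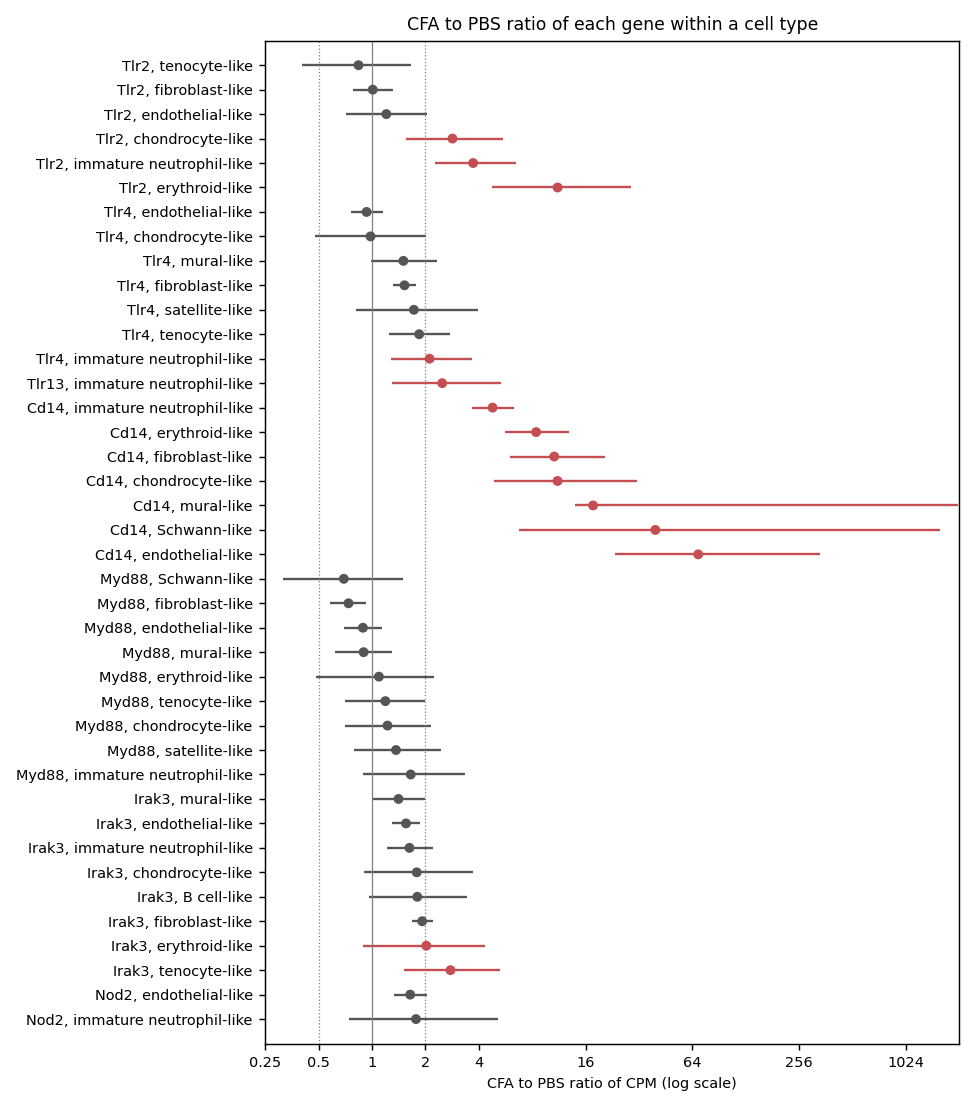
The 40 ratios of CFA to PBS levels, 1 line per gene and cell type, on a log axis with exact binomial 95% intervals, red where at least 2-fold, with lines at equal level and at 2-fold either way. All 7 *Cd14* ratios lie beyond 2-fold, from 4.78 in immature neutrophil-like to 69.0 in endothelial-like cells, whereas the 9 *Myd88* ratios lie between 0.693 and 1.65. The mural-like *Cd14* point of 17.6 reads the PBS count of 0 as 3 counts, and its interval starts at 13.9 and has no upper limit.

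*Cd14* was therefore the gene of the 9 whose reading outside the myeloid types differed most between the libraries. Endothelial-like cells held 3 UMIs in PBS and 242 in CFA, a ratio of 69.0 (23.3 to 337). Schwann-like cells held 1 and 47, a ratio of 39.5 (6.76 to 1594). Mural-like cells held 0 and 59, a ratio of 17.6 against a floor of 3 counts in the PBS cells, with an interval from 13.9 without an upper limit. Fibroblast-like cells held 13 and 145 UMIs, 10.6-fold higher (6.03 to 20.5). Levels in these types in CFA were near each other, at 36.2 (31.8 to 41.0), 25.9 (19.0 to 34.4), 26.2 (19.9 to 33.8) and 25.7 (21.7 to 30.2) CPM. B cell-like cells held 0 UMIs in 209 PBS cells, which allows a share of up to 1.44% of cells with a UMI, and 22 UMIs in 12 of 149 CFA cells.

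The amount of *Cd14* that free myeloid RNA would carry into each type was read from RNA of genes particular to the sources: *S100a8* and *S100a9* of neutrophils, *C1qa*, *C1qb* and *C1qc* of macrophages and *Mmp12* of Acp5 macrophages, the last chosen after the values had been seen. Scaled by the ratio of *Cd14* to these genes in the source cells, the counted *Cd14* of the CFA library was 1.16 times this read-across in Schwann-like, 1.19 in B cell-like, 1.19 in tenocyte-like, 1.15 in satellite-like and 1.31 in mural-like cells. It was 1.58 times in endothelial-like, 1.89 in fibroblast-like and 4.62 in chondrocyte-like cells. In erythroid-like cells it was 0.910 times, and *Tlr2* of those cells was 1.43 and *Irak3* 2.42 times the read-across. Without *Mmp12* the multiples ran from 1.98 to 14.4 over the 9 types. For *Tlr4* and *Irak3* of fibroblast-like CFA cells the counted UMIs were 108 and 140 times the read-across, and for *Nod2* of endothelial-like cells 106 times. In the types used for comparison, *Tlr4* and *Irak3* were 2.54 and 6.42 times in Schwann-like and 4.45 and 24.5 times in B cell-like CFA cells.

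**Figure D3:**
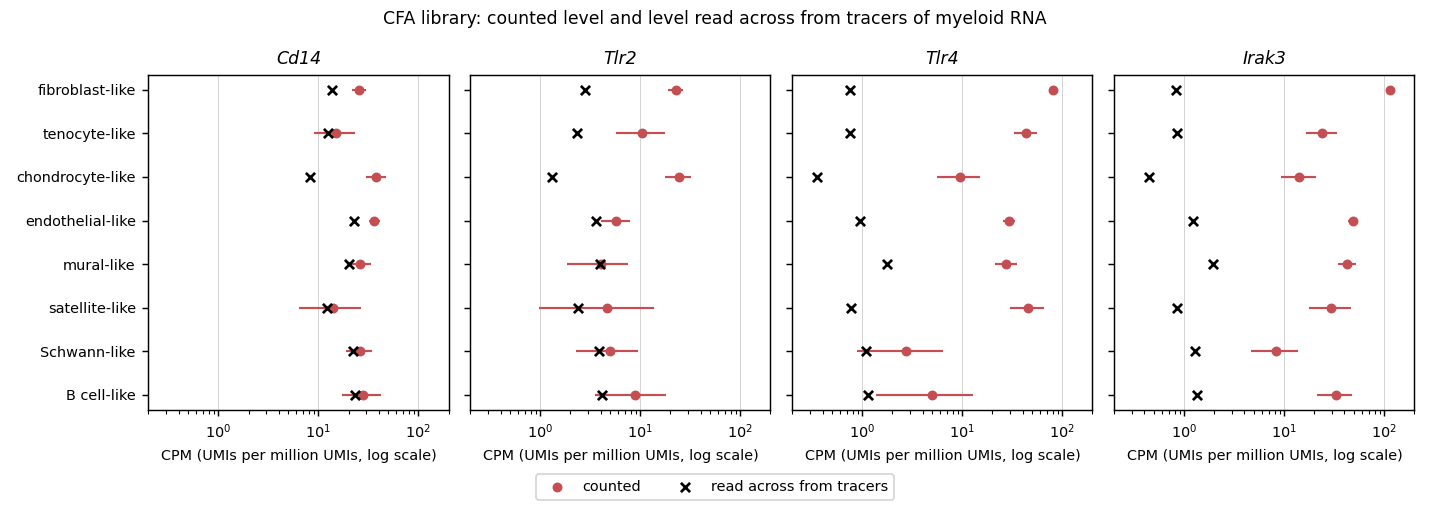
Counted levels of *Cd14*, *Tlr2*, *Tlr4* and *Irak3* in 8 non-myeloid cell types of the CFA library (circles, CPM on a log axis, exact Poisson 95% intervals) and the levels read across from free myeloid RNA (crosses). Erythroid-like cells are not drawn. For *Cd14* the crosses of Schwann-, B cell-, tenocyte- and satellite-like cells lie within the intervals (counted 1.15 to 1.19 times the cross), and for *Irak3* of fibroblast-like cells the counted level is 140 times the cross.

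Within the endothelial-like cells, the *Cd14* UMIs were concentrated in venular cells, marked by *Plvap*, *Selp*, *Vcam1* and *Lrg1*. These held 189 of the 242 UMIs at 65.9 (56.8 to 76.0) CPM, 2.76 times the read-across, whereas capillary cells (*Car4*, *Gpihbp1*) held 16.6 (9.81 to 26.2) and arterial cells 11.5 (6.11 to 19.6), 0.792 and 0.580 times. In a count chosen after the values were seen, 14 venular cells with at least 5 *Cd14* UMIs held 154 of the UMIs, and 0 of the 14 held a *Ptprc* UMI. In fibroblast-like cells, the 5 such cells held 64 of 145 UMIs and 4 of the 5 held a *Ptprc* UMI. In chondrocyte-like cells 3 cells held 51 of 72 UMIs and 2 of the 3 held a *Ptprc* UMI, and the level in chondrocyte-like cells without *Ptprc* was 15.7.

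*Nod2* was also unequal among endothelial subtypes. Arterial cells held 56.7 (43.4 to 72.9) CPM in PBS and 76.9 (61.6 to 94.8) in CFA, a ratio of 1.35 (0.966 to 1.91). Venular cells held 13.1 (7.86 to 20.4) and 29.6 (23.7 to 36.6), 2.27-fold higher (1.37 to 3.95), and capillary cells 16.4 (10.4 to 24.6) and 23.0 (14.9 to 33.9), a ratio of 1.40 (0.765 to 2.59). The endothelial-like cells without a subtype name, 299 in PBS and 390 in CFA, held 17.4 (11.8 to 24.6) and 37.4 (28.6 to 48.2). Their ratio of 2.16 (1.37 to 3.44) was near that of the venular cells. The arterial level was apart from those of the other named subtypes in each library. The *Irak3* ratio of venular cells was 1.19 (0.827 to 1.73), beside 1.92 (1.26 to 2.96) in capillary and 1.87 (1.22 to 2.92) in arterial cells, and these intervals overlapped.

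Among fibroblast-like cells, *Irak3* was highest in the *Pi16* subtype of vessel surroundings, at 94.1 (80.2 to 110) CPM in PBS and 124 (112 to 137) in CFA, 1.32-fold higher (1.09 to 1.59). *Thy1* sublining cells held 61.7 (50.4 to 74.8) and 98.2 (82.6 to 116), 1.59-fold higher (1.22 to 2.07). A fibroblast-like cluster led by *Comp* and *Fmod* that took no subtype name held 27.8 (21.0 to 36.2) and 107 (87.7 to 129), 3.83-fold higher (2.75 to 5.40), an interval apart from those of both named subtypes. *Tlr4* of the *Thy1* cells was 47.3 (37.5 to 59.0) and 92.6 (77.4 to 110), 1.96-fold higher (1.47 to 2.62), and of the *Pi16* cells 73.3 (61.1 to 87.2) and 83.5 (73.8 to 94.2), 1.14-fold (0.919 to 1.42). The intervals of these *Tlr4* ratios were apart, whereas those of the CFA levels overlapped. The *Pi16* cells were 129 of the 482 fibroblast-like cells in PBS and 160 of the 378 in CFA. The *Irak3* and *Tlr4* ratios of the whole type therefore also move with its make-up. These subtypes were clustered from the same cells without the 9 genes.

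**Figure D4:**
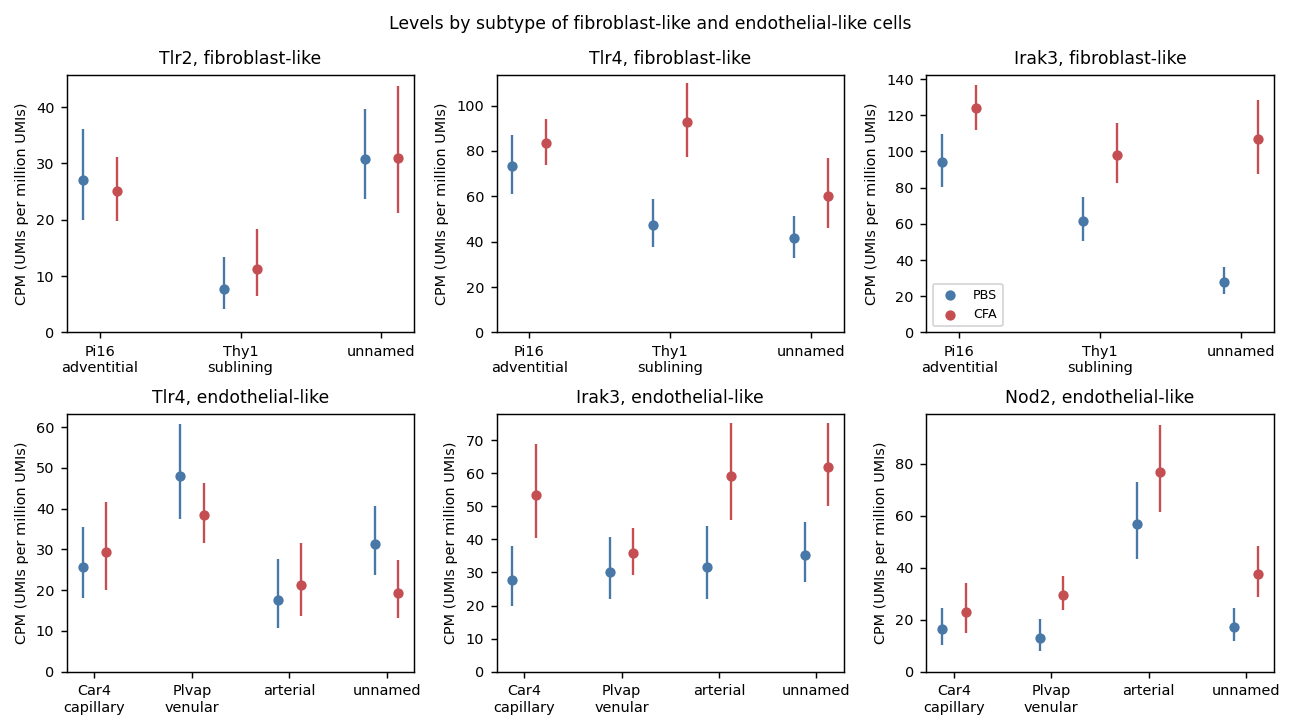
Levels of *Tlr2*, *Tlr4* and *Irak3* in subtypes of fibroblast-like cells and of *Tlr4*, *Irak3* and *Nod2* in subtypes of endothelial-like cells, in CPM with exact Poisson 95% intervals, for both libraries. *Nod2* is highest in arterial cells (56.7 in PBS and 76.9 in CFA), and *Irak3* of the unnamed fibroblast-like cluster led by *Comp* and *Fmod* is 27.8 in PBS and 107 in CFA.

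Receptor subunits were also read together in single myeloid cells. Of 310 macrophage-like CFA cells, 246 held a *Tlr2* UMI, and *Tlr1* was present in 24.0% of these and 7.81% of the rest, *Tlr6* in 11.8% and 6.25%. *Cd14* was present in 93.8% of the 144 *Tlr4*-bearing macrophage-like cells and in 84.3% of the others, and *Ly96*, which encodes the TLR4 partner MD-2, in 41.7% and 30.1%. In 170 immature neutrophil-like cells *Tlr4* was present in 50% of cells with *Tlr2* and 22.5% of cells without. Rarer subunits did not follow this order in every type. Of 181 mature neutrophil-like cells, 96 held *Tlr2*, and *Tlr1* was present in 2.08% of these and 4.71% of the rest, while *Ly96* was present in 7.62% of the 105 with *Tlr4* and 10.53% of the others. *Tlr6* was present in 6.67% of the 60 monocyte-like cells with *Tlr2* and 28.6% of the 7 without, and *Tlr1* in 6.38% and 11.1% of the progenitor-like cells. Cells with more UMIs show more genes of any kind, and these shares were not corrected for depth.

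Among 49 other genes of the pathway, the fibroblast-like cells had 36 read, of which 5 were at least 2-fold higher and 1 lower, beside 7.76% and 4.29% of all genes, with a median ratio of 1.14 beside 1.01 for all genes. *Lbp*, whose product delivers lipopolysaccharide to CD14, went from 172 to 506 CPM, 2.94-fold higher (2.73 to 3.17). *Tnfaip3*, an inhibitor of NF-κB, was 2.66-fold higher (2.08 to 3.42), *Il1rl1*, the receptor of IL-33, 3.94-fold (2.45 to 6.60) and the kinase gene *Irak2* 2.12-fold (1.5 to 3.02). *Ly86*, a partner of the receptor homologue CD180, held 2 and 30 UMIs, a ratio of 14.3 (3.63 to 123). Its CFA level was 5.32 CPM here and 252 (218 to 289) in monocyte-like cells, its highest. The part of free myeloid RNA or *Ptprc*-bearing barcodes in the ratios of the pathway genes, in this and the other cell types, was not tested. The adaptor gene *Ticam1* had a ratio of 0.397 (0.223 to 0.682).

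Immature neutrophil-like cells had 8 of 36 pathway genes higher and 0 lower, beside 7.52% and 9.14% of all genes, with a median ratio of 1.34 beside 0.990 for all genes. They were the inhibitor genes *Tnfaip3* (5.05), *Nfkbia* (2.98) and *Tollip* (2.23), the kinase and ligase genes *Irak2* (4.35) and *Peli1* (2.31), *Ly86* (4.51), *Nod1* (2.06) and *Irf5* (2.29). Endothelial-like cells had 0 of 36 past 2-fold in either direction, beside 4.46% and 4.91%, with a median ratio of 1.07. Chondrocyte-like cells had *Unc93b1* (3.37) and *Tirap* (3.57) higher and *Lbp* (0.146) and *Ripk2* (0.477) lower of 29 read, beside 3.67% and 6.19%.

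In the other types the counts were small except in erythroid-like cells, where 8 of 29 were higher, beside 12.1% of all genes: *Unc93b1* (8.47), *Traf6* (3.08), *Nfkb1* (2.76), *Lbp* (2.65), *Cyld* (2.43), *Irak2* (2.25), *Traf3* (2.08) and *Ikbkg* (2.02). Schwann-like cells had *Socs1* (3.36) and *Tlr3* (2.02) higher of 29, beside 6.47% of all genes. B cell-like cells had *Ripk2* (2.85) higher and *Socs1* (0.467) lower of 31, beside 2.43% and 3.86%. Satellite-like cells had *Socs1* (2.06) higher of 19, beside 8.15%, tenocyte-like cells *Irak4* (2) higher of 30, beside 3.46%, and mural-like cells *Sigirr* (0.312) lower of 33, beside 4.48% lower. These counts of 1 or 2 genes lie near the shares of all genes. The intervals of the *Tlr3*, *Irak4*, *Ikbkg*, *Tollip* and *Irf5* ratios included 1.

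Several pathway genes had their highest level in myeloid cells of the CFA library. *Nfkbia*, which encodes the inhibitor IκBα, reached 3817 (3672 to 3966) and *Irak2* 765 (701 to 834) CPM in mature neutrophil-like cells, the latter beside *Tirap* at 52.5 (36.7 to 72.6) and *Nod1* at 122 (97.7 to 152). Monocyte-like cells held the RNA-sensing receptor genes *Tlr7* at 79.8 (61.5 to 102) and *Tlr8* at 36.2 (24.2 to 51.9), the gene *Nfkbiz* at 1245 (1169 to 1324) and the adaptor gene *Ticam2* at 18.7 (10.47 to 30.9). Macrophage-like cells held *Nfkb1* at 746 (720 to 773) and the chaperone gene *Unc93b1* at 570 (547 to 593). Outside the myeloid types, *Hsp90b1*, a chaperone of Toll-like receptors, was highest in tenocyte-like CFA cells at 810 (762 to 859), *Peli1* in B cell-like PBS cells at 278 (247 to 312), *Xiap* in endothelial-like PBS cells at 266 (252 to 279) and *Relb* in satellite-like CFA cells at 203 (169 to 241).

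Genes with the most similar profile were sought among 13205 genes over 25 profiles of cell type and library, which share libraries and cells, by Pearson's r of log2(CPM + 10). *Tlr13* was most like *Ccr1* (0.991), *Tarm1* and *Arg2*, and *Cd14* most like the chemokine gene *Cxcl2* (0.978), *Clec4e* and *Mpeg1*. *Tlr2* was most like *Ptgs2* (0.962), *Clec4e* and *Mpeg1*, *Tlr6* most like *Ptgs2os2* (0.974), *Cd101* and *4933432I03Rik*, and *Tlr1* most like the macrophage marker gene *Adgre1* (0.937), *Nlrp1b* and *Lacc1*. *Nod2* was most like *Picalm* (0.943), *Irak2* and *Klhl2*. For the more widely read genes the best matches were weaker: *Ndel1* (0.891), *Sfxn5* and *Mcl1* for *Tlr4*, *Kdm6b* (0.868), *Zyx* and *Zswim4* for *Myd88*, and *Diaph1* (0.842), *Tlr4* and *Sp140* for *Irak3*.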

How the data were processed

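The PBS and CFA libraries were analysed, 1 per condition. Per the labels and methods, reads were aligned to GRCm38 (mm10) and counted with Cell Ranger 7.0.1, and the authors deposited raw UMI counts per gene and barcode, without normalization. The annotation release behind the counts is not given in the sources used here. Cells were kept by the limits above, normalized with SCTransform per library, integrated on 3000 genes and clustered on 200 principal components at a resolution of 1.5 (R 4.3.3, Seurat 5.3.0, SeuratObject 5.2.0, sctransform 0.4.2, random seed 1). The limits on genes and mitochondrial UMIs, SCTransform, integration, number of components and resolution follow the study's methods. The hemoglobin limit, which 4554 PBS and 779 CFA barcodes exceeded, and the 3000 genes were chosen here. Counts and intervals were computed with Python 3.11.15, numpy 2.4.6, scipy 1.17.1 and pandas 2.3.3, and figures with matplotlib 3.10.9. Gene positions are from the GENCODE annotation of GRCm38.

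The members and lists were chosen with earlier results of these data known. Named are all 9 members, the pathway genes past 2-fold, in each group of the pathway list the 2 with the highest level, and for each member the 3 genes of most similar profile. A cluster was named from at least 3 detected markers, each with a UMI in at least 25% of its cells and at least 2-fold the level of other cells. A cluster with markers of both progenitors and monocytes was split, a choice made after seeing the data. A library at 0 was read at 3 counts. The 30-UMI minimum left low genes out of the ratios. A gene was called past 2-fold without a test, since each condition had 1 library. The computation of ratios and intervals was tested on simulated data.

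Doublets were kept, because Scrublet (scanpy 1.11.5) called 21 PBS and 2 CFA cells and so few calls in the CFA library were not relied on. Why so few were called was not tested. Leaving out the 5% of cells with the highest scores was an alternative. Thinning to 1000 UMIs left out 55 PBS and 129 CFA cells. Clusters without a name held 213 PBS and 474 CFA cells. Further alternatives were no hemoglobin limit, 20% mitochondrial UMIs, 1000 genes per cell, resolution 0.8, log-normalized counts on 2000 variable genes without integration, the members among the clustering genes, each cell classed on its own, a mean over cells, scaling by the median ratio and no minimum of UMIs.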

Additional observations from a re-analysis of the deposited data

Results flagged for a closer look

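The cells of clusters that took no cell type name entered no comparison above, yet some held members at levels beyond those of Schwann-like cells in the same library. A cluster led by *Prss34*, *Mcpt8* and *Cpa3*, genes of basophils and mast cells, held 7 PBS and 12 CFA cells with *Irak3* at 381 (226 to 602) CPM in PBS and 523 (412 to 655) in CFA. Both values were above those of every named cell type in the same library. A UMI was present in 5 of the 7 and 11 of the 12 cells.

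A cluster led by *Prg4*, *Slurp1* and *Hbegf*, of 30 PBS and 6 CFA cells, held *Tlr4* at 101 (75.8 to 132) CPM in PBS and 73.9 (35.5 to 136) in CFA. *Prg4* encodes lubricin, a product of synovial lining cells. Its *Tlr2* was 37.4 (22.8 to 57.7) in PBS and 88.7 (45.8 to 155) in CFA. With 6 CFA cells, the intervals of both genes overlapped between the libraries and no ratio was read.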

How the results depend on the processing

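No paired analysis was possible because each condition had 1 library and no comparison rests on a replicated test. Of 126 counts under the alternatives (genes past 2-fold, in all and by cell type, and members highest in a myeloid type), 104 stayed within 1.5 times their value and 22 moved. The total of 14 genes past 2-fold became 6 with log-normalized counts (1 of which was lower, in 6 compared cell types), 9 without the highest Scrublet scores, 3 with each cell classed on its own (in 5 cell types) and 36 with no minimum of UMIs (9 of them lower). With no minimum, the counts by type were 3 in B cell-like, 2 in endothelial-like, 6 in erythroid-like, 3 in fibroblast-like, 4 in mural-like, 2 in satellite-like, 4 in Schwann-like and 4 in tenocyte-like cells. These counts include ratios whose direction the floor of 3 counts turned. *Tlr1* and *Tlr13* of tenocyte-like cells, with 1 PBS and 0 CFA UMIs, were read as 4.67-fold higher. *Tlr1* of endothelial-like cells, with 0 PBS and 1 CFA UMI, was read as lower at 0.285. Fibroblast-like cells had 2 in place of 1 with no hemoglobin limit, with 20% mitochondrial UMIs, with 1000 genes per cell and with log-normalized counts, since *Irak3* then passed 2-fold (2.10, 2.06, 2.23 and 2.39). Mural-like cells had 2 with log-normalized counts. They had 0 without the highest Scrublet scores and with each cell classed on its own, where *Cd14* fell under the 30-UMI minimum and was not read. In the 9 alternatives with a value, the mural-like *Cd14* ratio was 11.4 or more. B cell-like cells had 1 with 20% mitochondrial UMIs, erythroid-like cells 1 with the members among the clustering genes, and tenocyte-like cells 2 as a mean over cells. Of 382 ratios, 364 kept their place, 16 moved and 2 reversed: the erythroid-like *Irak3* ratio was 0.930 with no hemoglobin limit and 0.892 as a mean over cells. The fibroblast-like *Cd14* ratio was 5.30 without the highest Scrublet scores. At resolution 0.8, where the mature neutrophil-like cells joined the immature ones, *Tlr4* was highest in those (136). Of 46 values of a gene's highest level, 30 stayed within the interval and 16 moved, among them *Tlr1* in macrophage-like cells at 9.54 with resolution 0.8. *Myd88* was highest in satellite-like cells with no hemoglobin limit (71.9), at resolution 0.8 (71.8) and with each cell classed on its own (68.3), and *Irak3* in T or NK cell-like cells with no hemoglobin limit (187). The causes were not tested. Depth limits *Tlr1* and *Tlr6*, with 182 and 220 UMIs in all.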

Other observations

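A cluster led by *Siglech*, *Stat4* and *Flt3*, of 44 PBS and 88 CFA cells, took no name because 2 markers were detected. It held *Cd14* at 6.08 (1.25 to 17.8) CPM in PBS and 128 (105 to 154) in CFA, and *Irak3* at 16.2 (7 to 31.9) and 42.6 (29.8 to 58.9). Its *Tlr2* was 18.2 (8.34 to 34.6) and 18.9 (10.8 to 30.7).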
